A study of Homo sapiens with 9 samples.

Results

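MDA-MB-231 cells that had been in 500 nM JQ1 for 24 h were compared with untreated cells of the same line, over all genes that the array's annotation names. Differences were taken between 6 of the 9 arrays in the study, the 3 of the 24 h group and the 3 controls. Each gene was represented by its row with the highest mean over all arrays, which gave 14884 genes. The other 3 arrays came from cells kept in 500 nM JQ1 for 12 h. Their values are given only where they place the 24 h state. They did enter the test of every gene, because its spread was estimated over all 9 arrays. With the arrays of the 2 groups alone, 994 genes were called at 24 h instead of 1714. All arrays held total RNA from MDA-MB-231, an established triple-negative breast cancer cell line with a mesenchymal appearance, grown in DMEM with 10% FBS and measured on Affymetrix Human Gene 2.0 ST arrays. The controls carry the agent none and the time 0, so they were neither named as vehicle-treated nor collected at 24 h, and an effect of JQ1 cannot be told apart from an effect of vehicle, time or cell density in these labels. A single cell line was used, and nothing in the labels says that the 3 arrays of a group came from separate cultures. The p-values therefore cover only how far these arrays differ from one another, which may be a technical spread.

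The BET proteins, BRD2 and BRD3 among them, bind acetylated histones through their bromodomains, and JQ1, a compound that fills the binding pocket, releases them from chromatin. BET proteins at enhancers and promoters help to recruit P-TEFb, the kinase that releases paused RNA polymerase II, so genes that depend on large enhancers are known to be sensitive to BET inhibitors, MYC and inflammatory genes among them. HEXIM1, which holds P-TEFb in an inactive complex with the 7SK RNA, is widely used as a marker of BET inhibitor exposure because its own transcript rises.

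The values are log2 array values as the authors deposited them, and every difference given below is a difference of log2 values, so that 1 unit is a 2-fold change. Over the 14884 genes, controls 1 and 2 differed from each other with an SD of 0.152, whereas control 3 differed from them with an SD of 0.41 and 0.411. The 3 arrays of the 24 h group differed among themselves with SDs of 0.183 to 0.227. Control 3 was thus as far from its own group as the treated arrays were, which lay at 0.416 to 0.43 from controls 1 and 2. For this reason many counts and differences are given with all 3 controls first and then against controls 1 and 2 alone. Where the second form is missing, it is not reported here. Among transcripts that mark the cell line, VIM, MSN, AXL and FOSL1 stood at percentiles 98.4, 99.9, 99.7 and 99.1 of all genes and CD44 at 72.6. Of the luminal and epithelial genes on the list of low markers, ESR1, PGR and FOXA1 lay at percentiles 30.6, 15.9 and 29.1, whereas EPCAM and GATA3 were in the middle of the scale, at 52.3 and 59.4, and GATA3 was called lower at 24 h with and without control 3. CDKN2A, whose locus is deleted in this line, was at percentile 29.2, and its lowest and highest values over the 6 arrays were 4.88 and 5.05, which gives a working idea of background. S100A4, a mesenchymal marker, was low at percentile 17.7. None of the 6 measured leukocyte markers passed the limma test, and 0 of the 6 had an unadjusted p under 0.05.

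At 24 h, 1714 genes passed an adjusted p of 0.05 in limma, 770 of them higher and 944 lower than the controls, which is 11.5% of all genes tested, 5.17% in the upward and 6.34% in the downward direction. Of these, 250 (1.68%) differed at least 2-fold, 83 (0.558%) upward and 167 (1.12%) downward. The words rose and fell below are kept for genes that passed this test. Against controls 1 and 2 alone the count was 3111 (20.9%), 1430 higher (9.61%) and 1681 lower (11.3%). Of those, 439 differed at least 2-fold (2.95%). The counts in gene lists below are to be read beside these shares over all genes, which are larger without control 3. In all, 1640 genes passed both ways with the same sign, 74 passed only with control 3 and 1471 only without it. Control 3 was nearer to the mean of the 24 h arrays than to the mean of the other controls for 1357 of those 1471 genes (92.3%), against 18.0% of the 1714 genes and 49.1% of all genes. The count also moved when other single arrays were left out, to 1011 without control 1, 1034 without control 2, 914 without replicate 1 of the 24 h group and 786 without its replicate 3, and 699 genes passed whichever of the 9 arrays was left out. The median difference over all genes was 0.01 in both forms.

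**Figure D1:**
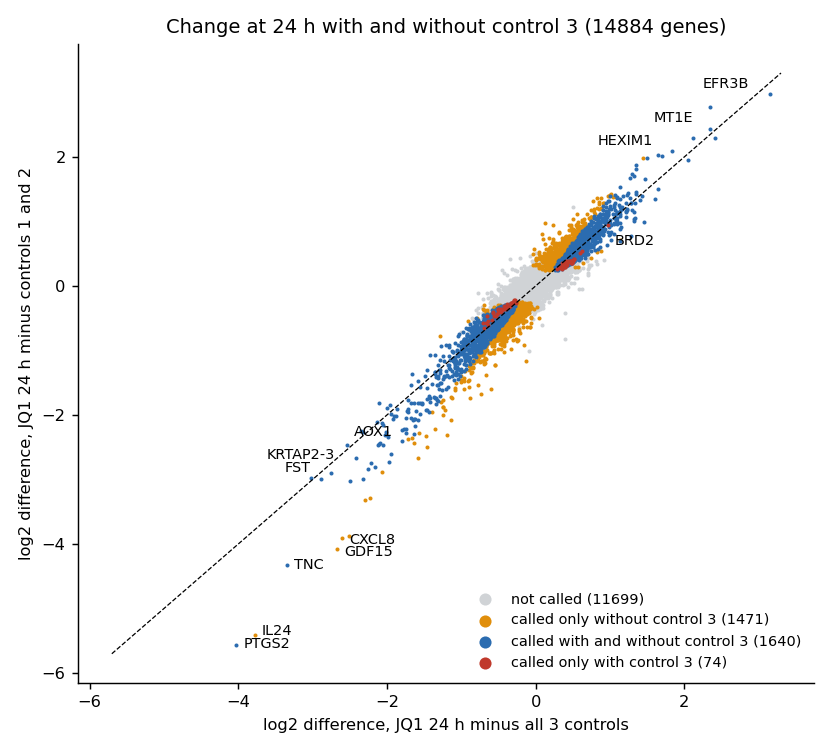
Each point is 1 of 14884 genes. The x axis is its log2 difference between the 24 h arrays and all 3 controls and the y axis the same difference against controls 1 and 2, with a dashed line where both are equal and colours for the calls at an adjusted p of 0.05. Genes far below the line, PTGS2, IL24, GDF15 and CXCL8 among them, had a low value in control 3, whereas EFR3B, FST, KRTAP2-3 and AOX1 lie close to it.

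The transcripts that read out BET inhibition moved in all 3 treated arrays. HEXIM1 was 7.56, 7.82 and 8.45 in controls 1 to 3 and 9.85, 9.64 and 9.85 in the 24 h arrays. No treated array overlapped a control, and control 3 was the highest of the controls. HEXIM1 rose by 1.84 (SE 0.20, adjusted p = 0.00098), a 3.57-fold change, and by 2.09 against controls 1 and 2. BRD2, itself a JQ1 target, had 8.42, 8.38 and 8.46 in the controls and 9.37, 9.41 and 9.37 after 24 h. These 2 groups were each tight and lay far apart, and the rise of 0.96 (SE 0.06, adjusted p = 9.8e-05) was 0.98 without control 3. BRD3 did not differ detectably, at 0.03 (adjusted p = 0.88), and its sign turned to -0.05 without control 3. Among the 13 measured BET proteins and P-TEFb regulators, HEXIM1 and BRD2 were the 2 that rose and none fell, with a median difference of 0.03. Without control 3, MEPCE, the capping enzyme of 7SK RNA, also rose (0.36), ELL, an elongation factor, fell (-0.44), and the median was -0.04.

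MYC had 10.29, 10.32 and 9.52 in the controls and 9.36, 9.13 and 9.35 in the treated arrays. Control 3 stood apart from the other controls and just above the highest treated value. MYC fell by 0.76 (SE 0.19, adjusted p = 0.036), and by 1.02 (adjusted p = 0.00013) without control 3, but the call against 3 controls was lost when any single array other than control 3 was left out. MXD4, a MAX partner that opposes MYC, was 6.26, 6.20 and 5.74 in the controls and 6.90, 6.62 and 6.99 at 24 h. Its rise of 0.77 (adjusted p = 0.015) was 0.61 without control 3 and was lost without replicate 1 or 3 of the 24 h group. Of the 32 subunits of Mediator, the bridge between enhancers and RNA polymerase II, and of the polymerase itself, MED11 (0.84) and MED20 (0.60) rose, MED30 (-0.58) and MED24 (-0.41) fell, and the median was -0.04. The calls of MED30 and MED24 were lost without control 1 or 2 or replicate 2 or 3 of the 24 h group. The 4 genes are 12.5% of the list, close to the share of all genes. Without control 3 the counts were 4 up and 6 down, MED12 among the latter (-0.90), when 20.9% of all genes were called.

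The transcripts that rose the most at 24 h had no overlap with any control. EFR3B, which anchors a phosphatidylinositol 4-kinase at the plasma membrane, was 5.94, 5.63 and 5.25 in the controls and 8.86, 8.65 and 8.76 in the treated arrays. The rise was 3.15 (SE 0.16, adjusted p = 2.4e-05), or 8.87-fold, and 2.97 without control 3. PEG10, an imprinted gene derived from a retrotransposon, was 8.21, 8.32 and 9.53 in the controls and 11.40, 10.84 and 10.88 at 24 h. Control 3 lay part of the way up, and the rise of 2.35 became 2.77 without it. DCXR, a carbonyl reductase, went from 9.27, 9.09 and 9.72 to 10.92, 10.74 and 10.82, a rise of 1.47 that was 1.65 without control 3. DGAT1, the enzyme of the last step of triglyceride synthesis, went from 7.87, 7.89 and 7.63 to 9.29, 9.08 and 9.25, and its rise of 1.41 was 1.33 without control 3. The calls of these 4 genes held whichever array was left out. The same was so for PCYOX1, which degrades prenylcysteines (1.70, and 2.02 without control 3), TRNP1 (1.65 and 1.51), GXYLT2, a xylosyltransferase (1.65 and 2.03), SNX29 (1.43 and 1.39), HCFC1R1 (1.35 and 1.42) and MIDN, midnolin, which delivers nuclear proteins to the proteasome (1.61 and 1.34). ABHD4, a lipase, rose by 1.46 but by 0.99 without control 3, and its call was lost without replicate 1 or 3 of the 24 h group or without any 12 h array (adjusted p = 0.031 with all arrays).

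Among the transcripts that fell the most, several had 3 controls close together. FST, follistatin, which binds and blocks activins, was 9.33, 9.30 and 8.99 in the controls and 6.44, 6.47 and 6.05 after 24 h. It fell by 2.88 (SE 0.13, adjusted p = 2e-05), or 7.39-fold, and by 2.99 without control 3. KRTAP2-3, a keratin-associated protein, was 11.92, 11.74 and 11.97 in the controls, which placed it among the brightest transcripts, and 8.80, 8.57 and 9.19 at 24 h. The fall of 3.02 was 2.98 without control 3. The long noncoding RNA RDUR was 7.64, 7.43 and 7.07 in the controls and 4.55, 4.49 and 4.87 at 24 h, a fall of 2.75 to near the level of CDKN2A. TLR3, the endosomal receptor for double-stranded RNA, dropped in the same manner, from 7.26, 7.40 and 7.48 to 5.24, 4.85 and 5.10. AOX1, aldehyde oxidase, was 9.17, 9.03 and 9.33 in the controls and 6.75, 6.56 and 6.61 at 24 h. Its fall of 2.54 had an SE of 0.09 and the smallest adjusted p of the genes named here (5.2e-06). TM4SF18 (-2.35), EPB41L3, a cytoskeletal linker of the band 4.1 family (-2.42), and NAV3, neuron navigator 3 (-2.14), behaved alike in that no call was lost on leaving out an array, and their differences without control 3 were -2.25, -2.67 and -2.11.

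Another set of falling transcripts was low in control 3 as well as after JQ1. PTGS2, the inducible cyclooxygenase, read 11.05, 11.09 and 6.49 in the controls and 5.58, 5.65 and 5.31 at 24 h. All treated values were still below all controls, yet the gap to control 3 was a small part of the gap to the others. PTGS2 fell by 4.03 (SE 1.02, adjusted p = 0.034), and by 5.56 (adjusted p = 2.8e-08) against controls 1 and 2, and the call against 3 controls was lost on leaving out any array other than control 3. TNC, the matrix protein tenascin C, was 10.41, 10.28 and 7.41 in the controls and 6.07, 5.83 and 6.15 at 24 h. It fell by 3.35, or by 4.33 without control 3, and the call was lost only without replicate 3 of the 24 h group. IL24, a cytokine of the IL-10 family, had 9.31, 9.34 and 4.46 in the controls and 3.79, 3.87 and 4.11 at 24 h, so that control 3 was within 1 unit of the treated arrays. Its difference of -3.78 did not pass the test (adjusted p = 0.054), whereas the difference of -5.41 without control 3 did (adjusted p = 2.8e-08). CXCL8, interleukin 8, read 9.15, 8.94 and 5.17 in the controls and 5.36, 4.45 and 5.63 at 24 h. Here control 3 lay among the treated arrays. The same arrangement held for the stress cytokine GDF15 (10.87, 10.84 and 6.63 against 6.97, 6.39 and 6.98) and the tight junction protein CLDN1 (8.73, 8.77 and 5.57 against 5.62, 5.31 and 5.44). In the myeloid receptor TREM1 (8.17, 8.31 and 4.16 against 4.56, 4.17 and 4.37) control 3 was below every treated array. CXCL8, GDF15, TREM1 and CLDN1 passed only without control 3, with differences of -3.90, -4.08, -3.87 and -3.29, as did the adhesion receptor ICAM1 (-2.88), the peptide hormone SPX (-3.31) and SESN2 (-2.67). What set control 3 apart was not tested.

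**Figure D2:**
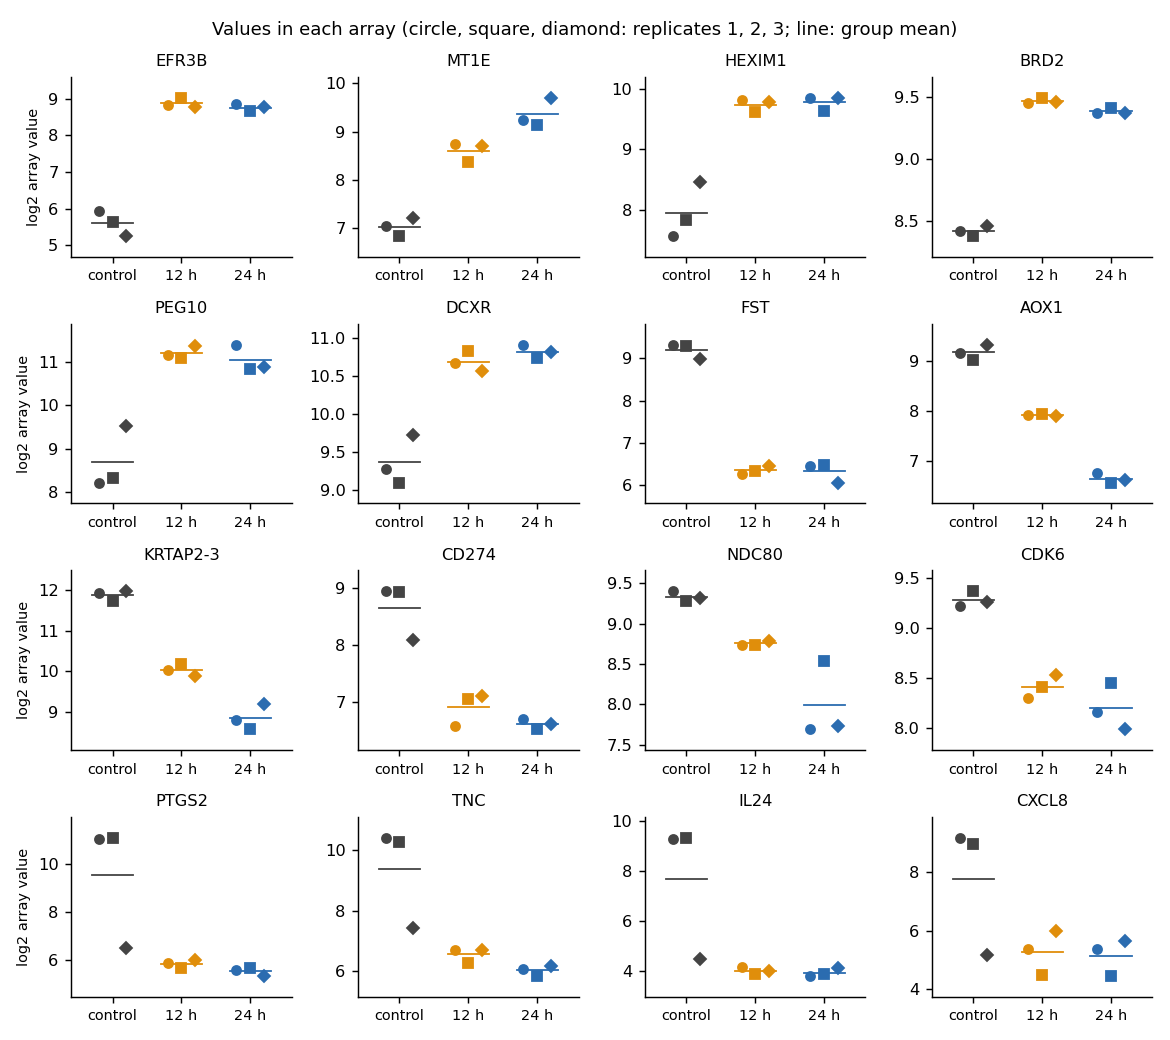
Each panel shows 1 gene, with the log2 array value on the y axis and the control, 12 h and 24 h groups on the x axis; circles, squares and diamonds are replicates 1, 2 and 3 and lines are group means. In the upper panels (EFR3B to AOX1) the 3 controls lie apart from the 24 h arrays, though control 3 lies part of the way up in HEXIM1 and PEG10. In the bottom panels (PTGS2, TNC, IL24, CXCL8) control 3 lies near the treated arrays.

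The list with the most falling members was that of the mitotic machinery. Genes for spindle assembly and chromosome segregation peak in G2 and M phase, and many of them carry a CHR element (TTTGAA) near the start site, which is bound by the DREAM and B-MYB complexes. To show this feature, the 250 bases before the start of 3 of the falling members are given from RefSeq (GRCh38.p14), with every CHR match on either strand in capitals. HMMR lies at chr5:163460382-163460631 on the plus strand, CDCA8 at chr1:37692266-37692515 on the plus strand and PRC1 at chr15:90994536-90994785 on the minus strand.
HMMR: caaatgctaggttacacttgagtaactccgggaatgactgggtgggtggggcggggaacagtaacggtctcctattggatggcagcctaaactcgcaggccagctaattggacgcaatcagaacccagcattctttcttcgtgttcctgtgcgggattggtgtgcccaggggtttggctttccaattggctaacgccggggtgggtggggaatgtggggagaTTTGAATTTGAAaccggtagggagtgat
CDCA8: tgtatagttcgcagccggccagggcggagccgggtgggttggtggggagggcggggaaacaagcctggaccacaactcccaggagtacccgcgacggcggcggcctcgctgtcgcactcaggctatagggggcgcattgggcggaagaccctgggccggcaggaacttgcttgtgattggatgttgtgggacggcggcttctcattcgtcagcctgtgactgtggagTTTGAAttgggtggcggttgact
PRC1: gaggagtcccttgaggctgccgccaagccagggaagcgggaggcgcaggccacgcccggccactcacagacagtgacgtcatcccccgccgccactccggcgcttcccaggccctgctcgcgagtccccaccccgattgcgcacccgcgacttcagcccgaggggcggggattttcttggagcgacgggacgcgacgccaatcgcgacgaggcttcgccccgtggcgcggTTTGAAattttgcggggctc

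In these promoters the matches began at positions -28 and -22 (HMMR), -23 (CDCA8) and -20 (PRC1), counted from the start. In CDK1, a falling member whose sequence is not printed, the match began farther away, at -161. A promoter sequence was at hand for 10749 of the 14884 genes, and TTTGAA occurred in 10.4% of them, in 13.4% of the genes that fell and in 4.05% of those that rose. Of the 46 spindle and kinetochore genes with a promoter sequence, 23 (50%) held it. Among the 19 of them that fell, 10 held it (52.6%), a share like that of the whole list. CCAAT, which often accompanies CHR elements, occurred in 35 of the 46 (76.1%) against 34.3% of all promoters. These matches describe the letters in a window and were not tested for binding.

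Of the 54 measured genes of the spindle, the kinetochore and the mitotic kinases, 23 fell and none rose (42.6%, against 6.34% of all genes called lower), and the median difference was -0.63. Without control 3 the count was again 23 and the median -0.45. NDC80, the outer kinetochore protein that grips microtubules, was 9.40, 9.28 and 9.32 in the controls and 7.69, 8.54 and 7.73 at 24 h. The groups did not overlap, and replicate 2 of the treated group was the closest to the controls. NDC80 fell by 1.35 (SE 0.19, adjusted p = 0.0031), and by 1.36 without control 3. HMMR, a spindle protein and hyaluronan receptor, went from 8.64, 8.65 and 8.44 to 7.07, 7.61 and 7.03, a fall of 1.34 that was 1.41 without control 3. CDCA8, borealin, of the chromosomal passenger complex, went from 9.15, 9.16 and 9.47 to 8.09, 8.41 and 7.93. In HMMR and CDCA8 as well, replicate 2 of the 24 h group was the highest of the treated arrays. CDCA8 fell by 1.12, and by 1.01 without control 3. PRC1, which bundles microtubules in the central spindle, went from 9.67, 9.66 and 9.87 to 8.60, 9.03 and 8.40. The calls of NDC80, HMMR, CDCA8 and PRC1 held whichever array was left out, but that of SKA3, a kinetochore protein (-1.16), was lost without replicate 1 or 3 of the 24 h group. CDK1, the kinase that drives entry into mitosis, was 8.96, 9.02 and 9.34 in the controls and 8.03, 8.83 and 7.96 at 24 h. Its fall of 0.83 (adjusted p = 0.034) was lost on leaving out any array other than control 3 and replicate 2 of the 24 h group.

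The 24 h arrays differed in their mitotic genes. Relative to controls 1 and 2, the median over the 54 genes was -0.54 in replicate 1, -0.13 in replicate 2 and -0.66 in replicate 3. The count of falling members was 31 without replicate 2, 9 without replicate 1, 10 without replicate 3 and 14 without control 1. Control 3 moved the other way, with a median of 0.55 above controls 1 and 2 and 47 of the 54 genes higher, and the DNA replication genes were higher still in it. Cell cycle position was not measured in these samples, and its part in the differences between arrays was not tested.

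**Figure D3:**
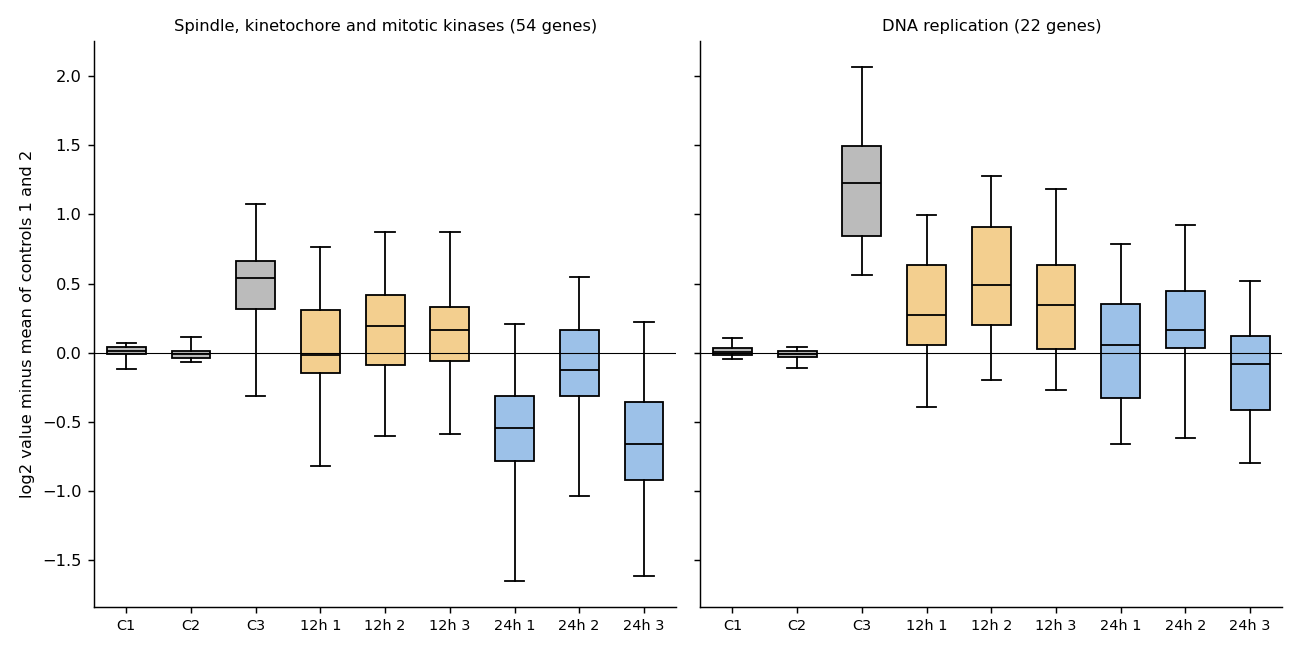
The y axis is the log2 value minus the mean of controls 1 and 2, for the 54 spindle, kinetochore and mitotic kinase genes (left) and the 22 DNA replication genes (right) in each of the 9 arrays (C, controls). Boxes span the quartiles with a line at the median and whiskers reach the lowest and highest gene. C1 and C2 mirror each other because their mean is the zero, C3 lies highest in both panels, and in the left panel replicates 1 and 3 at 24 h lie lowest (medians -0.54 and -0.66).

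Replication genes showed no such fall against controls 1 and 2. Of 22 measured members, GINS3, a subunit of the replicative helicase (-0.85), and CDC6, which loads it (-0.76), fell, and none rose. That is 9.09%, against 6.34% of all genes called lower. The list median was -0.35 with all controls and 0.05 without control 3, in which the median stood 1.23 above the other controls and all 22 genes were higher. GINS3 went from 8.30, 8.23 and 8.84 to 7.72, 7.65 and 7.47 and passed whichever array was left out. The call of CDC6 was lost without replicate 1 or 3 of the 24 h group. Without control 3, 4 genes were higher than in controls 1 and 2, namely MCM4, a helicase subunit (0.74), TIMELESS (0.64), PCNA, the sliding clamp (0.58), and CDC7 (0.50). In MCM4 the controls were 8.23, 8.30 and 9.94 and the treated arrays 9.05, 9.19 and 8.78, so the treated values lay between the controls. Homologous recombination and Fanconi anaemia genes gave a median of -0.26 over 15 members, and -0.10 without control 3. PALB2, a scaffold of homologous recombination, fell by 0.65 only with control 3. WEE1, the kinase that restrains CDK1, fell by 0.72, a call lost without control 2 or replicate 1 or 3 of the 24 h group, and HUS1, a part of the checkpoint clamp, rose by 0.43, a call lost without replicate 1.

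The regulators above these genes fell in part. Of 13 E2F and DREAM genes, 4 fell and none rose (30.8%, against 6.34% of all genes called lower). The median was -0.54, or -0.39 without control 3. MYBL2, B-MYB, which activates the mitotic genes, was 9.89, 9.87 and 10.66 in the controls and 8.93, 9.18 and 8.80 at 24 h. It fell by 1.17, and by 0.91 without control 3. E2F3 fell by 1.00 in both forms, from 8.70, 8.75 and 8.74 to 7.70, 7.85 and 7.62. LIN9 (-0.82) and LIN54 (-0.54), of the MuvB core, also fell, but their calls were lost without replicate 1 or 3 of the 24 h group, and that of LIN54 also without control 1 or 2, so that the list kept 2 falling members without either treated array. Among 13 G1 cyclins, kinases and inhibitors, CDK6 fell from 9.22, 9.37 and 9.26 to 8.16, 8.45 and 7.99, a difference of -1.09 that was -1.10 without control 3. CDK4, its close relative, fell by 0.61 and CCND1, cyclin D1, the partner of both, rose by 0.67, from 8.86, 8.96 and 9.26 to 9.85, 9.66 and 9.58. The calls of CDK6, CDK4 and CCND1 held whichever array was left out. RBL1, the pocket protein p107, fell by 0.84, a call lost without control 2 or replicate 1 or 3 of the 24 h group. Of 34 kinesin motors, 5 fell and 5 rose (29.4%, against 11.5% of all genes called). Those that fell were KIF14 (-0.92), KIF24 (-0.77), KIF2C (-0.72), KIF18A (-0.68) and KIF2A (-0.51), and all but KIF24 are known for roles in the mitotic spindle or midbody. KIF3A (0.67), KIF3C, KIF1B, KIFC2 and KIF13A, which rose, are known as transport motors. KIF2C alone of these 10 passed whichever array was left out, and the kinesin counts ranged from 0 up and 1 down without replicate 1 of the 24 h group to 3 up and 9 down without its replicate 2 and 7 up and 6 down without control 3.

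Of 26 measured nucleolar genes for making ribosomes, 10 fell and none rose (38.5%, against 6.34% of all genes called lower), with a median of -0.41. Against controls 1 and 2 alone 11 fell, 2 rose and the median was -0.23, when 20.9% of all genes were called. DDX21, a helicase of rRNA transcription and processing, was 11.04, 11.09 and 11.28 in the controls and 10.11, 10.29 and 10.02 at 24 h. It fell by 1.00 (SE 0.11, adjusted p = 0.00099), and by 0.93 without control 3. TCOF1, treacle, which supports rRNA transcription, went from 8.11, 8.24 and 8.58 to 7.36, 7.65 and 7.16. NIP7, a factor of the large subunit, went from 10.09, 10.11 and 10.53 to 9.47, 9.34 and 9.51. In both genes control 3 was the highest array, and their falls of 0.92 and 0.81 were 0.78 and 0.66 without it. The count of falling members was 6 without replicate 1 or 3 of the 24 h group. Of 39 cytosolic ribosomal protein genes, by contrast, RPS28 (0.34) and RPL28 (0.38) rose and none fell. That is 5.13%, against 5.17% of all genes called higher, and the median was 0.02. No member passed without control 1, without control 2, or without replicate 1 or 3 of the 24 h group or replicate 2 or 3 of the 12 h group. Of 38 splicing factors, SNRPB (-0.52) and PTBP1 (-0.34) fell with all controls (5.26%, against 6.34% of all genes called lower), and the median was 0.00. Without control 3, 8 rose and 3 fell, SRSF2 (0.94) and SRSF7 (0.87) among the former. In that form 9.61% of all genes were called higher and 11.3% lower.

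Chromatin enzymes moved in both directions. Of 60 measured, 10 fell and 5 rose (25.0%, against 11.5% of all genes called), with a median of -0.03. EZH2, the H3K27 methyltransferase of Polycomb, fell by 0.81, from 9.06, 9.13 and 9.78 to 8.39, 8.71 and 8.44, and by 0.58 without control 3. CREBBP, a histone acetyltransferase, fell by 0.78, from 10.52, 10.55 and 10.39 to 9.60, 9.97 and 9.54. The deacetylases SIRT2 (1.02) and SIRT7 (0.80) rose. The calls of CREBBP, SIRT2 and SIRT7 held whichever array was left out, and that of EZH2 was lost without replicate 1 or 3 of the 24 h group. In that list the counts fell to 4 up and 4 down without either of those arrays. Of 27 HOX genes 3 fell and none rose. That is 11.1%, against 6.34% of all genes called lower and 11.5% called in either direction. HOXB9 had the lowest difference of the list, from 10.02, 9.92 and 8.22 to 7.26, 6.95 and 7.21. It fell by 2.25, or by 2.83 without control 3, and held whichever array was left out. HOXD3 (-0.50) and HOXB3 (-0.34) fell by less, with calls lost without control 2 or replicate 1 or 3 of the 24 h group, and the list median was 0.01.

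Inflammatory genes are a known target of BET inhibitors, since NF-kB can recruit BET proteins to their enhancers. Of 14 chemokine genes with a promoter sequence, 5 held a match to a kappa B motif, here GGG, any 2 bases and TTTCC on either strand (35.7%), against 1.85% of all promoters. The sequences of 3 of them whose transcripts were lower at 24 h than in controls 1 and 2 are shown, 250 bases before the start from RefSeq (GRCh38.p14), with the match on either strand in capitals. CCL20 lies at chr2:227813592-227813841 on the plus strand, CXCL2 at chr4:74099196-74099445 on the minus strand and CXCL3 at chr4:74038690-74038939 on the minus strand.
CCL20: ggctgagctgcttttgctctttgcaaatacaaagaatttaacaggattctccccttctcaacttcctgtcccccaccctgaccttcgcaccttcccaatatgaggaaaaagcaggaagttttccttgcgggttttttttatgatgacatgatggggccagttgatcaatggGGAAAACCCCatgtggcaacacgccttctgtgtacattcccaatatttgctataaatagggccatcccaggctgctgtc
CXCL2: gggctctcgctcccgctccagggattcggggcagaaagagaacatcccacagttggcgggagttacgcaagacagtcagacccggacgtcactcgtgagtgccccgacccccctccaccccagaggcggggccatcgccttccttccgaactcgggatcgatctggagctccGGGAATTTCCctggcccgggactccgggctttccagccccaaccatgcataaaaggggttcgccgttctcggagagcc
CXCL3: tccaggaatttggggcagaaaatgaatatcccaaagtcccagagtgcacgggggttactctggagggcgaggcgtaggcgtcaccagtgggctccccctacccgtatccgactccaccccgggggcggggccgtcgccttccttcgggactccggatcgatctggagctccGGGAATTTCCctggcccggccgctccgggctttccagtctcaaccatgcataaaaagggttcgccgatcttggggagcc

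The matches began at positions -79, -78 and -79, counted from the start, and CXCL2 and CXCL3 are close paralogs whose promoters share long stretches. CCL20, which attracts memory T cells and dendritic cells, was 5.89, 6.32 and 4.81 in the controls and 3.89, 4.01 and 4.18 at 24 h. It fell by 1.65 (SE 0.31, adjusted p = 0.011), and by 2.08 without control 3. CXCL2, a neutrophil attractant, went from 7.38, 7.28 and 6.86 to 6.65, 6.28 and 6.55. Its fall of 0.69 was 0.84 without control 3, and was lost without control 1 or 2 or replicate 2 or 3 of the 24 h group. CXCL3 was 5.45, 5.40 and 4.06 in the controls and 4.52, 4.40 and 3.96 at 24 h, so control 3 lay among the treated arrays and only the difference without it (-1.13) passed. The other 2 chemokines with the motif, CXCL5 (0.03) and CXCL6 (0.07), did not pass in either form. Of 19 measured chemokines, 2 fell with all controls (10.5%, against 6.34% of all genes called lower). Without control 3, 4 fell, the others being CXCL3 and CXCL8, when 11.3% of all genes were called lower. The list medians were 0.00 and -0.03.

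NFKB1, which encodes the p105 and p50 subunit, went from 8.94, 8.94 and 8.84 to 8.30, 8.08 and 8.28, a fall of 0.69 that was 0.73 without control 3. MAP3K14, the NIK kinase of the alternative pathway, rose by 0.62, and by 0.69 without control 3. Both calls held whichever array was left out. These were the 2 calls among 13 NF-kB genes (15.4%, against 11.5% of all genes called). Without control 3 the count of falling members was 6, TRAF1 (-1.60), NFKB2 (-1.04) and RELB (-0.56) among them. In that form 11.3% of all genes were called lower. Of 20 cytokine genes and their regulators, 2 rose and 3 fell (25.0%, against 11.5% of all genes called). LIF, a gp130 cytokine, was 10.05, 10.09 and 8.09 in the controls and 7.24, 6.84 and 7.17 at 24 h. It fell by 2.32, or by 2.99 without control 3, and its call was lost without control 1 or 2 or replicate 2 or 3 of the 24 h group. IL7R, the interleukin 7 receptor, fell by 0.94, and its difference without control 3 was -1.06. SOCS3, a feedback inhibitor of gp130 signalling, rose from 8.01, 7.91 and 7.86 to 9.13, 9.04 and 9.04 (1.14, SE 0.08, and 1.11 without control 3). IL18 rose by 0.62 in both forms. The calls of IL7R, SOCS3 and IL18 held whichever array was left out. Without control 3, 9 of the 20 fell, IL24 and IL32 (-1.32) among them, when 11.3% of all genes were called lower.

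Interferon-stimulated genes fell in part and none rose. Of 31 measured, 8 fell (25.8%, against 6.34% of all genes called lower). Without control 3, 11 fell, when 11.3% of all genes were called lower. The list medians were -0.05 and -0.10. IFI44 went from 8.29, 7.93 and 8.36 to 7.04, 7.09 and 7.13, a fall of 1.11. GBP3, a guanylate-binding protein, went from 8.40, 8.43 and 8.32 to 7.50, 7.03 and 7.49, a fall of 1.04. Neither gene depended on control 3, with differences of -1.03 and -1.07 without it. IFIT3 (-1.02) and IFIT2 (-0.90), which bind viral RNA, fell too, but their calls were lost without control 1 or 2 or any 24 h array, and the list kept 3 or 4 falling members when control 1, control 2 or a 24 h array was left out. The checkpoint ligand CD274, PD-L1, was 8.94, 8.92 and 8.09 in the controls and 6.71, 6.52 and 6.62 at 24 h. It fell by 2.03 (SE 0.23, adjusted p = 0.0012), or 4.09-fold, and by 2.31 without control 3. PDCD1LG2, PD-L2, went from 7.04, 6.68 and 5.97 to 4.91, 4.73 and 4.82, a fall of 1.74 that was 2.04 without control 3. Both ligands were lower in every treated array than in any control, and both calls held whichever array was left out. Of the 15 genes of antigen presentation and B7 ligands, PVR, the poliovirus receptor (-1.0, lost without control 1 or 2 or any 24 h array), and ERAP2, a peptide-trimming protease (-0.77), fell as well, and CD47 rose by 0.54.

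Stress pathways diverged. The integrated stress response, in which ATF4 induces amino acid synthesis genes, and the unfolded protein response gave 19 measured members. Of these, 4 fell and 1 rose (26.3%, against 11.5% of all genes called), with a median of -0.57. Without control 3, 16 fell, 2 rose and the median was -0.82, when 20.9% of all genes were called. The median in control 3 itself was 1.01 below the other controls, about where the treated arrays were (-0.77, -1.22 and -0.86). TRIB3, an ATF4 target, was 9.58, 9.89 and 7.48 in the controls and 7.13, 6.62 and 7.27 at 24 h. It fell by 1.97 (adjusted p = 0.041), the difference without control 3 was -2.73, and the call was lost on leaving out any array other than control 3. XBP1, the transcription factor of the unfolded protein response, went from 10.10, 10.16 and 8.61 to 7.91, 8.08 and 8.14. PSAT1, of serine synthesis, went from 11.93, 12.06 and 10.87 to 10.08, 10.54 and 9.98. Their falls of 1.58 and 1.42 were 2.08 and 1.80 without control 3, and both were lost without control 1 or 2 or replicate 1 or 3 of the 24 h group, when no member of the list fell. The call of XBP1 was also lost without replicate 2 of the 24 h group. ASNS, asparagine synthetase, was 10.59, 10.60 and 8.08 in the controls and 8.19, 8.42 and 8.21 at 24 h, so control 3 was the lowest of all 6 arrays. It passed only without control 3 (-2.32). CALR, the chaperone calreticulin, was the member that rose, from 12.00, 12.03 and 12.41 to 12.83, 12.75 and 12.81 (0.65).

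The heat shock pair HSPA1A and HSPA1B, near-identical genes whose probes may not separate them, rose by 1.27 and 1.35. HSPA1B was 9.64, 9.69 and 11.04 in the controls and 11.49, 11.46 and 11.46 at 24 h. Control 3 was close to the treated arrays, and without it the rises were 1.67 and 1.81. Both calls were lost without control 1 or 2 or replicate 1 or 3 of the 24 h group, which left 2 of 15 heat shock genes called. The call of HSPA1B was also lost without replicate 2 of the 24 h group. HSPA9, the mitochondrial member of that family, fell by 0.82, from 12.33, 12.42 and 12.13 to 11.35, 11.59 and 11.47. BAG3, a cochaperone, rose by 0.53. Without control 3 the differences of HSPA9 and BAG3 were -0.9 and 0.57, and both calls held whichever array was left out. Metallothioneins, small proteins that bind zinc and copper, rose in 3 of 12 measured genes of their list (25.0%, against 5.17% of all genes called higher). MT1E was 7.03, 6.83 and 7.20 in the controls and 9.25, 9.14 and 9.70 at 24 h, a rise of 2.34 (5.08-fold) that was 2.44 without control 3. MT1X rose by 0.82 and MT2A by 0.54, or by 0.68 and 0.41 without control 3, and the call of MT2A was lost without replicate 1 or 3 of the 24 h group. Metallothionein transcripts are alike in sequence and may share probe signal.

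Of 16 NRF2 targets and other antioxidant genes, 6 rose and none fell (37.5%, against 5.17% of all genes called higher), with a median of 0.28. Without control 3, 8 rose, 2 fell and the median was 0.42. CAT, catalase, which breaks down hydrogen peroxide, was 8.14, 8.22 and 8.48 in the controls and 9.45, 9.06 and 9.55 at 24 h. It rose by 1.07 (SE 0.13, adjusted p = 0.0017), and by 1.17 without control 3. TXNRD1, thioredoxin reductase, went from 8.57, 8.51 and 8.87 to 9.68, 9.60 and 9.48, a rise of 0.94 that was 1.05 without control 3. GPX4, which protects membrane lipids from peroxidation, went from 9.93, 9.84 and 9.43 to 10.62, 10.41 and 10.75. Its rise of 0.86 was 0.7 without control 3. All 3 calls held whichever array was left out. PRDX1 (0.91) and GSR (0.90) rose too, but their calls were lost without control 1 or 2 or any 24 h array. The call of GSR was also lost without any 12 h array. In control 3 GSR, at 9.02, was close to its treated values of 9.11 to 9.36. HMOX1, a classical NRF2 target, was lower without control 3 (-0.82). Of 11 growth arrest genes, 5 rose and none fell (45.5%, against 5.17% of all genes called higher). SESN3, a sestrin that restrains mTORC1, was 5.62, 5.63 and 5.26 in the controls and 8.18, 7.65 and 7.93 at 24 h. Its rise of 2.41 (5.32-fold) was 2.29 without control 3 and held whichever array was left out. SESN1 (0.71), PLK2 (0.60) and PLK3 (0.58) rose by less, and the count was 1 without replicate 1 or 3 of the 24 h group, 2 without control 1 or 2 and 3 without replicate 2 of the 24 h group. SESN2 went the other way, from 10.03, 9.98 and 6.74 to 7.59, 7.04 and 7.37, with control 3 below every treated array.

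Of 21 genes of cholesterol synthesis and uptake, 5 rose and none fell (23.8%, against 5.17% of all genes called higher), with a median of 0.22. Without control 3, 13 rose and none fell, with a median of 0.39, when 9.61% of all genes were called higher. INSIG1, the sterol-sensing brake on SREBP processing, was 7.44, 7.46 and 9.06 in the controls and 9.41, 9.23 and 9.36 at 24 h. It rose by 1.35 (adjusted p = 0.045), or by 1.88 without control 3, and the call was lost on leaving out any array other than control 3. DHCR7, the enzyme of the last step of cholesterol synthesis, was 7.14, 7.33 and 8.65 against 8.77, 8.41 and 8.59, and it passed only without control 3 (1.36), as did IDI1 (1.21) and SQLE (0.72). In these genes control 3 lay near or within the treated range. MYLIP, the ligase that marks the LDL receptor for degradation, and MVD, of the mevalonate pathway, did not depend on it. MYLIP went from 6.92, 7.0 and 6.84 to 8.36, 8.07 and 8.31, a rise of 1.33 that was 1.28 without control 3, and MVD rose by 0.75 or 0.81. The list kept 2 rising members without replicate 3 of the 24 h group and 3 without replicate 1, replicate 2, control 1 or control 2.

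Fatty acid genes split. Of 22 measured, 4 rose and 3 fell (31.8%, against 11.5% of all genes called). Each of these 7 calls held whichever array was left out. ACSL5, which activates long-chain fatty acids, fell from 9.92, 10.08 and 8.96 to 7.73, 7.38 and 7.58, a difference of -2.09, or -2.43 without control 3. Its relative ACSL4 fell by 0.73 and the elongase ELOVL7 by 0.85, whereas ACSL1 rose by 0.67, ACACB, an acetyl-CoA carboxylase, by 0.87 and DGAT1 by 1.41. FASN, fatty acid synthase, passed only without control 3 (1.14). Among 19 hypoxia and glycolysis genes, 5 rose and none fell (26.3%, against 5.17% of all genes called higher), with a median of 0.33. BNIP3, of mitophagy, went from 10.04, 10.00 and 9.86 to 10.78, 10.76 and 11.02 (0.89), and ADM, adrenomedullin, rose by 0.79. GAPDH, often used as a reference gene, rose by 0.59 in a range of 8.04 to 8.25 in the controls and 8.63 to 8.76 at 24 h. Without control 3 the differences of BNIP3, ADM and GAPDH were 0.83, 0.73 and 0.65. These 3 calls held whichever array was left out. The other rising members were EGLN1 and LDHA. The call of EGLN1 was lost without control 1 or 2, any 24 h array or replicate 2 of the 12 h group. That of LDHA was lost on leaving out any array other than control 3. VEGFA ran opposite to its list, with 9.43, 9.79 and 7.20 in the controls and 7.20, 7.14 and 7.20 at 24 h, and passed only without control 3 (-2.43). No gene of the 15 measured in the mitochondrial respiratory chain passed the limma test, 6 had an unadjusted p under 0.05, with COX6B1 at 0.59 (adjusted p = 0.06) and COX5A at 0.49 (adjusted p = 0.085), and 3 rose without control 3.

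Of 26 measured genes of TGF-beta, activin and BMP signalling, 6 fell and 1 rose (26.9%, against 11.5% of all genes called), with a median of -0.20. Without control 3, 8 fell and 2 rose, with a median of -0.15, when 20.9% of all genes were called. Besides FST, SKIL, a corepressor of SMADs, went from 7.38, 7.16 and 6.23 to 5.50, 5.67 and 5.49, a fall of 1.37 that was 1.72 without control 3 and held whichever array was left out. BMP2 was 8.32, 8.06 and 6.53 against 5.90, 5.91 and 6.24, and LTBP1, which tethers latent TGF-beta to the matrix, was 8.81, 8.90 and 6.91 against 6.61, 6.44 and 6.66. In both genes control 3 was close to the treated arrays. BMP2 fell by 1.62 and LTBP1 by 1.64, or by 2.17 and 2.29 without control 3, and both calls were lost without control 1 or 2 or any 24 h array. The list kept 2 falling members without control 2, without replicate 2 of the 12 h group or without any 24 h array. In the YAP and TEAD list of 24 genes, CCN2, connective tissue growth factor, rose from 11.61, 11.66 and 11.25 to 12.59, 12.38 and 12.46 (0.97) and FOXF2 fell from 8.05, 8.01 and 8.06 to 6.63, 6.73 and 6.71 (-1.35). YAP1 fell by 0.80, a call lost without control 1 or 2 or replicate 1 or 3 of the 24 h group, and AMOTL2, an angiomotin, rose by 0.47. The list moved both ways, with 4 up and 2 down (25.0%, against 11.5% of all genes called) and a median of 0.07. In the Wnt and Notch list of 33 genes, the secreted Wnt inhibitor DKK1 fell by 0.82 and the receptor FZD4 rose by 0.73, and the median was -0.06. In that list 2 rose and 3 fell (15.2%, against 11.5% of all genes called).

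Growth factor and immediate early genes also divided. Of 24 ERK feedback and ErbB genes, 4 fell and 2 rose (25.0%, against 11.5% of all genes called). Without control 3, 11 fell and 3 rose, when 20.9% of all genes were called. NRG1, a ligand of ErbB receptors, fell from 6.87, 7.02 and 6.46 to 5.99, 5.83 and 5.91 (-0.87), whereas the phosphatase DUSP4 rose from 7.44, 7.49 and 7.92 to 8.66, 8.43 and 8.53 (0.93). EREG, another ErbB ligand, fell by 1.31 (adjusted p = 0.038), with control 3 at 9.37 near its treated values of 8.83 to 9.20, and the call was lost on leaving out any array other than control 3. Of 10 AP-1 subunits, JUND rose from 8.54, 8.52 and 7.63 to 9.70, 9.32 and 9.65 (1.32, or 1.03 without control 3), FOSL1 did not pass (0.35, adjusted p = 0.066), and JUN passed only without control 3, in the downward direction (-1.16). KLF2 rose (1.22, or 1.07 without control 3) and KLF11 fell (-1.72, or -1.96), both with calls that held whichever array was left out, and EGR1 passed only without control 3 (-1.59). The median of the 10 AP-1 genes in control 3 was 0.80 below the other controls, lower than in any 24 h array. Of 14 clock genes, 4 fell and none rose (28.6%, against 6.34% of all genes called lower). Without control 3, 8 fell and none rose, when 11.3% of all genes were called lower. PER2 was 8.54, 8.45 and 6.70 in the controls and 6.18, 6.0 and 6.11 at 24 h. It fell by 1.80, and the difference without control 3 was -2.40. No call of a clock gene was kept without control 1, without control 2, or without replicate 1 or 2 of the 24 h group.

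Adhesion, matrix and coagulation genes included some of the largest falls. EDN1, the vasoconstrictor endothelin 1, was 8.03, 8.01 and 8.88 in the controls and 6.39, 5.90 and 6.33 at 24 h, a fall of 2.10 that was 1.81 without control 3. TFPI, an inhibitor of the initiating step of coagulation, went from 8.75, 8.65 and 7.94 to 6.59, 6.32 and 6.41, a fall of 2.01. THBD, thrombomodulin, went from 9.94, 9.68 and 7.85 to 7.14, 6.78 and 7.06, and its fall of 2.16 was lost without control 2 or any 24 h array. In all, 4 of 11 genes of coagulation and fibrinolysis fell and none rose (36.4%, against 6.34% of all genes called lower). The count was 2 without control 2 or without replicate 3 of the 24 h group. Among 17 matrix genes, the proteoglycan HSPG2, perlecan, rose from 7.11, 7.10 and 7.35 to 8.45, 8.73 and 8.20 (1.27) and FBN1, fibrillin 1, rose by 0.89, whereas LOX, lysyl oxidase, fell by 1.47, or by 1.93 without control 3, a call lost without control 1 or 2 or any 24 h array. The protease inhibitors TIMP2 (0.95) and RECK (0.79, lost without replicate 1 or 3 of the 24 h group) rose, as did the membrane metalloprotease MMP15 (0.86), while MMP16 fell by 0.53. Without control 3, 7 of the 24 matrix proteases and inhibitors fell, MMP1 (-1.87) among them, when 11.3% of all genes were called lower. DSC2, a desmosomal cadherin, fell by 1.53 and JUP, plakoglobin, also of desmosomes, rose by 1.15, a call lost without replicate 1 or 3 of the 24 h group. The EMT factors SNAI1 (-0.81), ZEB1 (-0.46) and ZEB2 (-0.34) fell by small amounts, with calls that were lost without replicate 2 or 3 of the 24 h group or without control 2. VIM did not pass with all controls (0.30, adjusted p = 0.056 in limma). Without control 3 VIM was called higher. Its values of 10.6 to 10.68 at 24 h lay above those of the controls, 10.23 to 10.51. TLN2, a talin, rose by 0.72 and TNS3, tensin 3, fell by 0.65. In all, 3 of 13 integrin and focal adhesion genes rose and 3 fell (46.2%, against 11.5% of all genes called). Without control 3, 3 rose and 5 fell, when 20.9% of all genes were called. Keratins KRT18 (0.61) and KRT19 (0.97) rose and KRT7 (-0.76) fell, each with a call that was lost without replicate 1 of the 24 h group, and that of KRT19 was also lost without control 3 (adjusted p = 0.051).

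Cell death genes moved on both sides. BCL2A1, an antiapoptotic BCL2 relative induced by NF-kB, was 9.30, 9.17 and 7.65 in the controls and 6.50, 6.12 and 6.01 at 24 h. It fell by 2.50 (SE 0.37, adjusted p = 0.0037), or 5.65-fold, and by 3.03 without control 3. PMAIP1, the BH3-only protein NOXA, was 10.11, 10.07 and 8.77 in the controls and 10.75, 10.88 and 10.73 at 24 h. Here control 3 was low, and the rise of 1.14 (adjusted p = 0.041) became 0.70 (adjusted p = 0.00054) without it, while the call against all controls was lost without any single treated array. BCL2L1, which encodes BCL-XL, did not pass (0.12, adjusted p = 0.5). The caspase inhibitors XIAP (-0.69) and BIRC2 (-0.53) fell with calls that held whichever array was left out. Their differences without control 3 were -0.64 and -0.44. CFLAR, which blocks caspase 8, fell by 0.80, or by 0.95 without control 3, a call lost without control 1 or 2. Among the 10 measured caspases and their regulators, TRADD rose by 0.66, a call lost without control 1 or 2 or replicate 1 or 3 of the 24 h group.

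**Figure D4:**
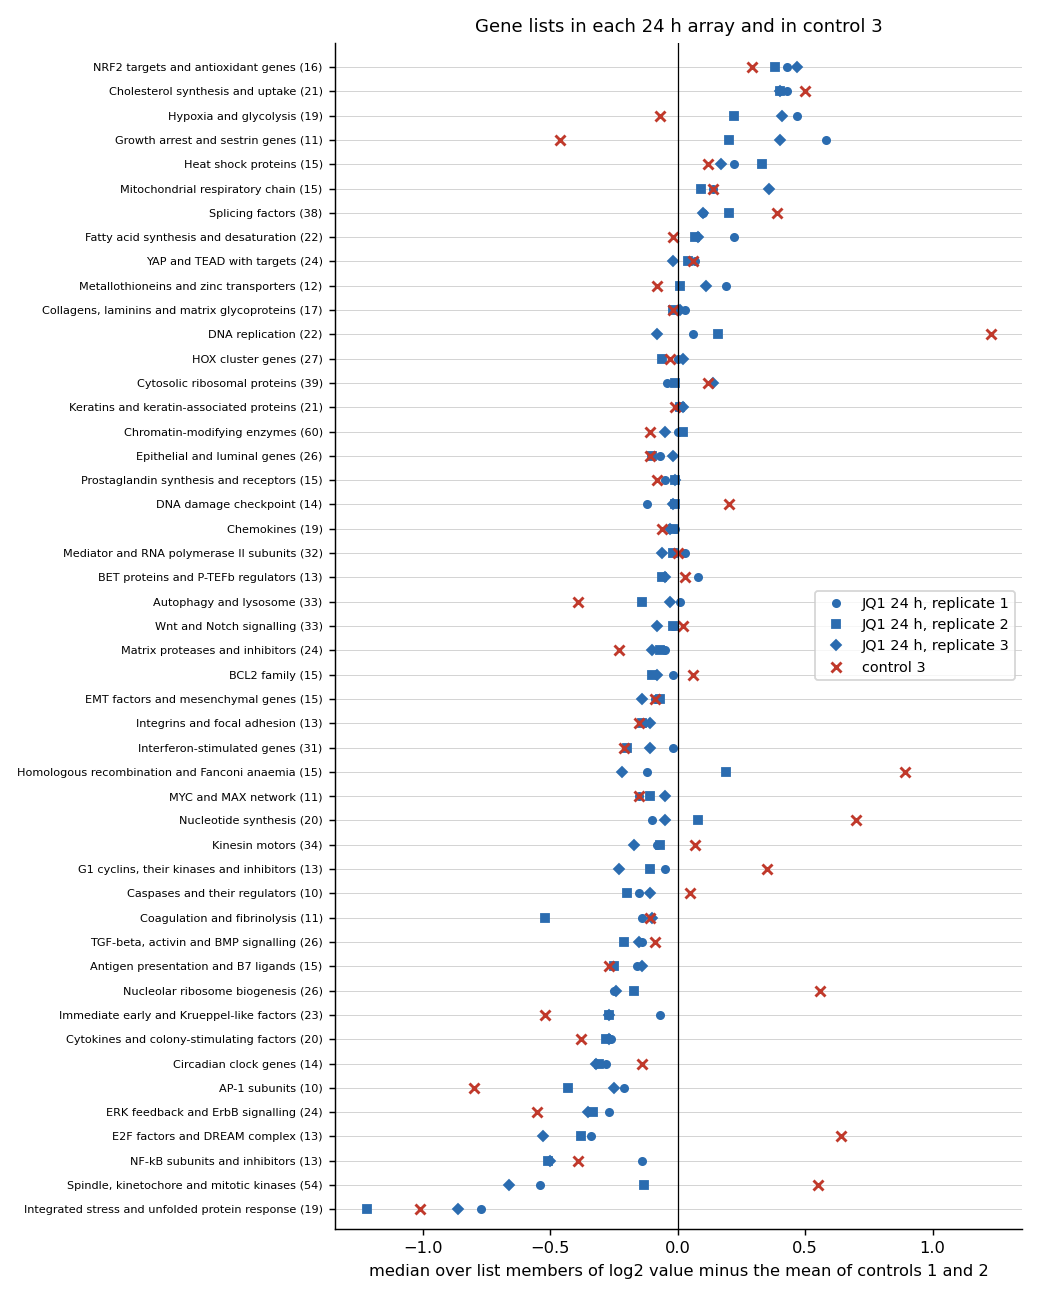
Each row is a gene list with its number of measured members; the x axis is the median over members of the log2 value minus the mean of controls 1 and 2. Blue symbols are the 3 arrays at 24 h and red crosses are control 3, which lies on the treated side for the integrated stress response (-1.01) and the cholesterol list (0.50) and on the opposite side for the spindle list (0.55).

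**Figure D5:**
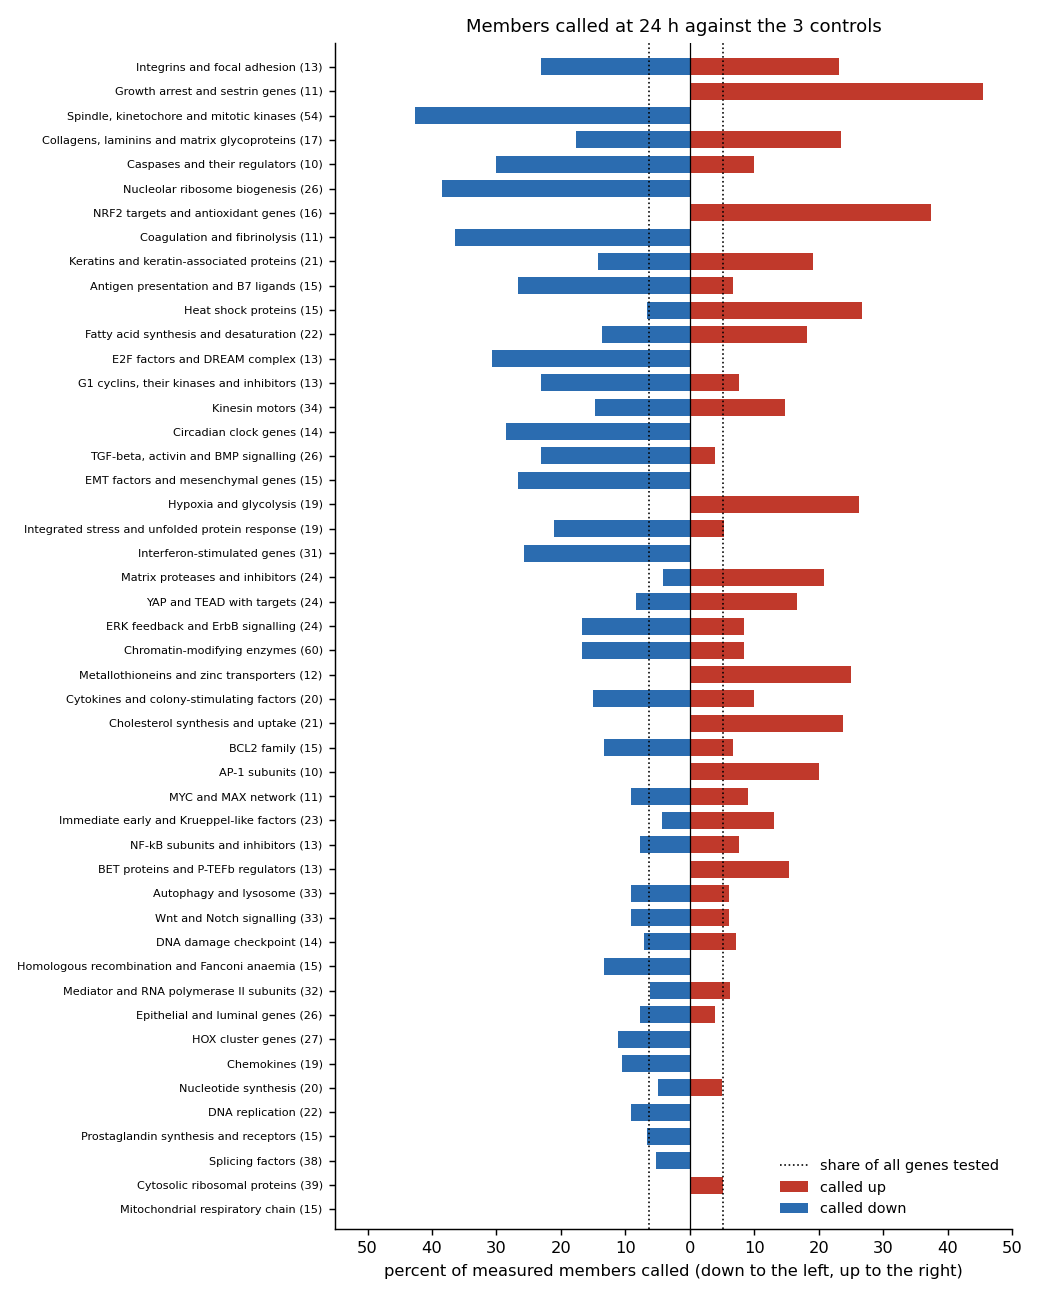
Bars give the percent of each list's measured members that passed an adjusted p of 0.05 at 24 h against the 3 controls, lower to the left and higher to the right. Dotted lines mark the shares over all 14884 genes, 6.34% lower and 5.17% higher; lists of about 10 genes move by about 10 points with 1 gene.

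The 24 h state was close to the 12 h state. Of the 1714 genes called at 24 h, 978 (57.1%) were also called at 12 h, and these were 82.8% of the 1181 called at 12 h, although both comparisons use the same controls. Tested directly, 24 h against 12 h, 1 of 14884 genes passed (0.00672%), while 995 had an unadjusted p under 0.05. That gene was AOX1, at 7.92 after 12 h as a mean of 3 arrays and 6.64 after 24 h, a difference of -1.28 (adjusted p = 0.0024). The direct count was 22 without control 3, 5 without replicate 2 and 2 without replicate 3 of the 24 h group. The list with the lowest median between the times was that of the spindle genes (-0.58, against 0.00 over all genes), with NDC80 at -0.77, MYBL2 of the DREAM list at -0.97 and KIF14 at -0.87, none of which passed on its own. Against the controls, the spindle list had a median of -0.05 at 12 h and -0.63 at 24 h. KRTAP2-3 (-1.18) and NAV3 (-1.25) also had lower values at 24 h than at 12 h without passing. HEXIM1 (0.04) and FST (-0.02) differed little between the times in these arrays.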

How the data were processed

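RNA was read on 9 Affymetrix Human Gene 2.0 ST arrays, 3 untreated, 3 after 12 h and 3 after 24 h of 500 nM JQ1. The authors deposited 1 table of log2 values with 53617 rows, made with Transcriptome Analysis Console per the submitters' processing notes; its version, its normalization and the array background step are not given in the sources used here. Array medians of 4.92 to 4.96 and a range of 2.01 to 13.88 are those of a normalized log2 scale. Rows were named through the platform annotation, which gave 1 symbol for 16098 rows and none for 37519. Where several rows shared a symbol, as for 779 genes, the brightest by mean was kept, which left 14884 genes.

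The test was limma 3.58.1 under R 4.3.3, with 1 mean for each of the 3 groups over all 9 arrays, moderated variances (prior degrees of freedom 3.14) and Benjamini-Hochberg adjustment over the 14884 genes. Called genes are those with an adjusted p under 0.05. The number of arrays, 3 a group, limits the precision, and an SE is that of a difference of means. The procedure was tested on simulated data. Replicate numbers were not used as pairs, because same-numbered control and 24 h arrays did not deviate together (correlations 0.17, -0.23 and -0.18).

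Gene lists, 53 in number with 1039 of 1663 genes measured, and the genes compared were chosen with earlier results of these data known. Named genes were the 15 highest and 15 lowest called genes, the 4 called members of each list with the largest difference (2 where none was called), a panel of BET-related and cell line genes, and genes called only with or only without control 3. ASNS, VEGFA, DHCR7, MCM4, PRC1, CDK1, CXCL3 and other genes given beyond these were chosen after their values were seen. The amino acid transporter and proteasome lists were not analysed here, and some single genes are not reported here. Promoter matches use RefSeq sequence with the Python 3.11.15 standard library, both strands, 250 bases before each start. Besides CHR, CCAAT and kappa B, motifs named E-box, AP-1, ATF4, heat shock, metal, antioxidant and sterol response were matched in every list. Their shares are not reported here. Alternatives tried were other row choices, a filter on dim genes, array weights, a variance trend, quantile normalization, the 2 groups alone, a replicate block and leaving out each array.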

Additional observations from a re-analysis of the deposited data

Results flagged for a closer look

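AOX1 was the gene whose level changed between the times of treatment by a direct test, and it is set out here because its effect at 24 h differed from that at 12 h. The difference of 24 h minus 12 h was -1.28 on the log2 scale (limma, adjusted p = 0.0024), and it was lower in 3 of 3 arrays at 24 h than in any array at 12 h, with 6.75, 6.56 and 6.61 against 7.91, 7.94 and 7.90. The controls were at 9.17, 9.03 and 9.33, so the fall to 12 h (-1.26) and the fall from 12 h to 24 h were of like size.

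Rows without a gene name were not used in the comparisons. In a limma fit over all rows of the table, 1048 of the 37519 unnamed rows passed an adjusted p of 0.05 at 24 h against control (2.79%), 496 higher and 552 lower, against 1166 of the 16098 named rows (7.24%). The unnamed rows had a median log2 value of 4.49 and the named rows one of 6.05. Which transcripts the unnamed rows measure was not analysed here.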

How the results depend on the processing

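The count of genes called at 24 h, 1714, became 3764 with array quality weights, which gave control 3 a weight of 0.213, and 994 with the 2 groups' arrays alone, which leaves fewer arrays to estimate the spread. Leaving out 1 array at a time gave 786 to 3111. The count stayed within 1.5 times under the other alternatives, from 1478 with a replicate block (694 up and 784 down) to 1843 with genes of a mean under 5 left out. The replicate block pairs arrays that share only a number, and of the 177 called genes named by rule it ended the call of 22. The 250 genes called at 2-fold or more became 412 with array quality weights and 177 to 439 on leaving out 1 array. The single gene called for 24 h against 12 h became 14 with array quality weights and 1 to 22 on leaving out 1 array. BRD3, near 0, turned sign with array quality weights (-0.04), without replicate 1 of the 24 h group (-0.00) and without control 3 (-0.05), in a leave-one-out range of -0.05 to 0.08. No other of the 195 genes named by rule changed sign under any alternative. Genes given beyond these, chosen after their values were seen, were not part of that check. The 2 groups' arrays alone ended the calls of 68 genes named by rule, and 94 of the 177 held whichever array was left out. No scaling alternative moved the median of all genes by more than 0.01 from 0.01. With 3 arrays a group, 1 of them apart from its group, small differences were not detectable here, and probes near the background understate changes.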

Other observations

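The cytosolic aminoacyl-tRNA synthetases, which charge tRNAs with amino acids and many of which are known ATF4 targets, were listed after their values were seen, so their counts are a description. Of 17 measured, 10 were called lower and 1 higher, with a median of -0.77, against 6.34% and 5.17% of all genes. Without control 3, 13 were called lower and 3 higher and the median was -1.15, and control 3 itself had a median 0.53 below the other controls. AARS1 (-1.34), YARS1 (-1.21), LARS1 (-1.08) and IARS1 (-1.0) had the largest falls, and QARS1 was the member that rose (0.69). The calls of LARS1 and IARS1 held whichever array was left out. That of YARS1 was lost without control 1 or 2 or any 24 h array. Those of AARS1 and QARS1 were lost on leaving out any array other than control 3.

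A list of Toll-like receptors and nucleic acid sensors, also drawn up after the values were seen, was called lower in 7 of 23 genes and higher in 1. The shares over all genes were 6.34% and 5.17%, and the list median was -0.12. Without control 3, 10 were called lower and 1 higher, with a median of -0.14. Of the 7 called lower with all controls, RDUR (-2.75) is a long noncoding RNA. The others were TLR3 (-2.32), DDX60 (-1.31), TLR6, a receptor for bacterial lipopeptides that shares the family (-1.07), CGAS, the cytosolic DNA sensor (-1.06), DDX60L (-0.92) and IFIH1, the RNA sensor MDA5 (-0.60), and MAVS, the adaptor of the cytosolic RNA sensors, rose by 0.40. CGAS was 8.53, 8.55 and 8.71 in the controls and 7.37, 7.71 and 7.53 at 24 h, with no overlap. The call of IFIH1 was lost without control 1 or 2 or any 24 h array. That of MAVS was lost without control 1 or 2 or replicate 1 or 2 of the 24 h group.

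Several genes best known from blood cells were well above the lower end of the scale in controls 1 and 2 and lower at 24 h. CD22, a B cell lectin, was 11.51, 11.56 and 10.49 in the controls and 9.45, 8.89 and 8.93 at 24 h. Its 4.28-fold fall was 5.45-fold without control 3. CD96, a receptor of T and NK cells, was 8.33, 8.07 and 8.02 against 6.28, 5.76 and 6.18. Its 4.2-fold fall was 4.38-fold without control 3. LAT, a T cell adaptor (10.48, 10.54 and 9.08 against 8.47, 8.04 and 8.40), and LAPTM5, a lysosomal protein of leukocytes (10.50, 10.52 and 9.52 against 9.11, 7.73 and 8.87), were lower as well. The differences of LAT and LAPTM5 were -1.74 and -1.61, or -2.21 and -1.94 without control 3. The call of LAPTM5 was lost without control 1 or 2, replicate 2 or 3 of the 24 h group or replicate 1 of the 12 h group. Of the 6 measured leukocyte markers, CD14, TYROBP, CD2, CSF1R and LYZ lay between 3.69 and 5.83 over the 6 arrays, whereas CD68, a lysosomal protein of macrophages that other cells can also express, was bright, at 11.54 to 11.88. These genes were chosen after their values were seen.

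Among rows named for microRNA genes, those called with a change of at least 2-fold at 24 h were MIR612 (2.05), MIR221 (1.50), MIR197 (1.16) and MIR21 (1.13). All were higher than the controls, and the differences without control 3 were 1.95, 1.98, 1.19 and 1.09. MIR612 was 6.07, 6.04 and 5.76 in the controls and 7.76, 8.20 and 8.05 at 24 h. The calls of MIR612 and MIR197 held whichever array was left out. That of MIR221 was lost without control 1 or 2, any 24 h array or replicate 2 of the 12 h group. The call of MIR21 was lost without control 1 or 2 or replicate 2 or 3 of the 24 h group. An array of this kind reads total RNA from the locus, so mature microRNA levels were not measured.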
